A study of Homo sapiens and Mus musculus with 12 samples.

Results

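The genes GFI1 and GFI1B were examined in the ChIP-seq peak lists of 5 libraries from 2 human leukemia lines. Both genes were given by name. A peak was taken as a member when it lay within the gene body of GENCODE release 44 on GRCh38 or within 50 kb on either side. By this rule 15 of the 12513 peaks in the 5 lists were members, 6 at GFI1 and 9 at GFI1B, the 2 genes being compared with all 20033 protein-coding genes. SPI1 (an ETS factor of myeloid cells) and GFI1 were immunoprecipitated from THP1 cells, a monocytic line. K562 cells, an erythroleukemia line, stably expressed Cas9 and carried a guide RNA, which was non-targeting in sg-NT cells and directed at the LSD1 gene in sg-LSD1 cells. From sg-NT cells there was an LSD1 and a GFI1 ChIP, and from sg-LSD1 cells a GFI1 ChIP. The sg-LSD1 cells were 1 of the edited lines, depleted of LSD1 protein by Western blot and not shown to lack it, and the labels give no treatment for THP1 cells. Each antibody and condition had 1 library, so no difference between libraries could be tested, and peak lists hold no expression values by which the identity of the lines could be checked. No LSD1 list of THP1 or sg-LSD1 cells was analysed here.

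GFI1 and GFI1B are closely related zinc-finger repressors. Through the short SNAG domain at their N-terminus they bind LSD1, the histone demethylase also known as KDM1A, and with it the CoREST and histone deacetylase proteins. GFI1 is used by stem cells, lymphoid cells and granulocytes, and GFI1B by the erythroid and megakaryocytic lineages. Each protein is known to bind regulatory DNA of its own gene and of the other, at sites built around the core AATC, which is written GATT on the opposite strand.

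GFI1 (ENSG00000162676.13) lies on the minus strand of chromosome 1 from 92473043 to 92486925, with the start of its canonical transcript at 92486925. GFI1B (ENSG00000165702.15) lies on the plus strand of chromosome 9 from 132944000 to 132991687, with its canonical start at 132978694. Its gene body is longer because upstream transcripts begin inside TSC1 (132891348 to 132946874, minus strand), which the gene body overlaps. The windows measured 113883 bp for GFI1 and 147688 bp for GFI1B, against a median of 127471 bp over all genes. Distances are given from the canonical start, in kb, and are positive in the direction of transcription.

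The sequences of 6 places, not chosen by strength alone, are shown 5′ to 3′ on the plus strand of GRCh38. For THP1 cells these are the GFI1 peaks in intron 1 (chr1:92486376-92486475) and at +26.7 kb (chr1:92460147-92460246), which were the 2 strongest at the gene, and the GFI1 peak at +28.5 kb (chr1:92458365-92458464), the only 1 there with the full core AATCAC. For K562 cells they are the site at +25.7 kb of GFI1B where LSD1 and GFI1 peaks met (chr9:133004308-133004441), the LSD1 peak at +20.6 kb (chr9:132999290-132999389) and 30 bases beside the LSD1 summit at the GFI1B start (chr9:132978631-132978660). These 30 bases were picked as the stretch there with most AATC, and the summit itself lies outside them. The strongest LSD1 peak of GFI1B, at −33.3 kb, is not shown, nor are LSD1 windows with neither of the cores marked below. The 6 places therefore do not give the frequency of these cores over all summits. Capitals mark the AATC core on either strand, with 2 further letters where the full core AATCAC is met, and also the core of GATA factors, which is GATAA.
GFI1 intron 1, THP1 GFI1 peak: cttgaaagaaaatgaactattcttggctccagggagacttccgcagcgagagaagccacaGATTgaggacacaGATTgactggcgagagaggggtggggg
GFI1 +26.7 kb, THP1 GFI1 peak: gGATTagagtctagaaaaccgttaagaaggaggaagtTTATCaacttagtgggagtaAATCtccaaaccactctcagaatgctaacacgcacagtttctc
GFI1 +28.5 kb, THP1 GFI1 peak: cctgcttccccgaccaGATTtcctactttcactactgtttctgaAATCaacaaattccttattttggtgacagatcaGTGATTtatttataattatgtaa
GFI1B +25.7 kb, K562 LSD1 and GFI1 peaks: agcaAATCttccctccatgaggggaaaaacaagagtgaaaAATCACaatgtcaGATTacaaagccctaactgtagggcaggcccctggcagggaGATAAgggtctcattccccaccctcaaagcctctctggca
GFI1B +20.6 kb, K562 LSD1 peak: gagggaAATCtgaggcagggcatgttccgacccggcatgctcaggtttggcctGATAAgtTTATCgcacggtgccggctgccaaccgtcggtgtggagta
GFI1B start, K562 LSD1 peak: ccgccaGATTttgacacaaatAATCaGATT

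The number of peaks called at the 2 loci varied over the 5 lists. With 1 library per condition and lists of 160 to 6548 peaks, differences by line or by factor were not tested. In THP1 cells GFI1 had 5 peaks at its own gene and 0 at GFI1B. In sg-NT K562 cells LSD1 had 1 peak at GFI1 and 8 at GFI1B, and GFI1 had 0 peaks at GFI1 and 1 at GFI1B. SPI1 in THP1 cells and GFI1 in sg-LSD1 K562 cells had 0 peaks at both genes. Whether the GFI1 antibody also detects GFI1B is not given in the sources used here, so a GFI1 peak is a peak of this antibody in either line, and the 2 proteins cannot be told apart by it. Among all protein-coding genes, at least 1 peak in the window was found for 26.2% in the THP1 GFI1 list, 41.1% in the LSD1 list, 4.77% in the sg-NT GFI1 list, 15.5% in the SPI1 list and 1.48% in the sg-LSD1 GFI1 list. A count of 0 was thus what most genes had in each of the lists.

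**Figure D1:**
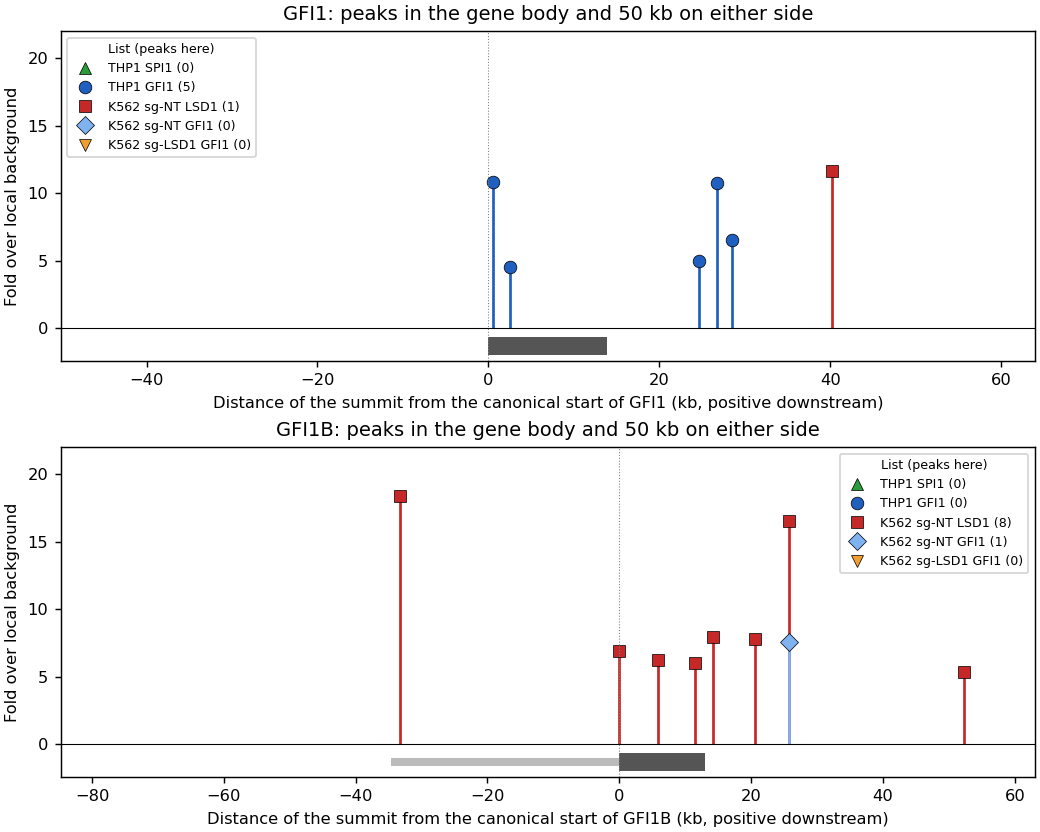
Fold over local background (y axis) of every peak at GFI1 (upper panel) and GFI1B (lower panel) against the distance of its summit from the canonical start in kb (x axis), with the colour and shape of a marker giving the list, the thin bar the gene body and the thick bar the canonical transcript. THP1 GFI1 peaks were seen at GFI1 in 2 groups, and LSD1 peaks lay along GFI1B, where the 1 sg-NT GFI1 peak met an LSD1 peak at +25.7 kb.

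The 5 peaks of GFI1 at GFI1 in THP1 cells formed 2 groups, 1 inside the gene near its start and 1 past its end. The strongest spanned 92485642 to 92486692, with its summit in intron 1, 499 bp from the canonical start and 329 bp from the start of the coding transcript ENST00000427103.6. With 1051 bp it was the widest of the 5. Its fold, the ratio of fragments at the summit to the local background with 1 added to each, as MACS2 computes it, was 10.9. By its −log10 p of 21.2, which MACS2 takes from a Poisson distribution, it ranked 580 of the 3461 peaks in the list. The number of fragments over the summit, solved from fold and p, was 21, with an exact Poisson 95% interval of 13.0 to 32.1. These intervals cover counting error only, and not the spread between cultures or libraries.

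The other peak within the gene body, from 92484443 to 92484817, was weak. Its summit lay in intron 1 of the canonical transcript, in an exon of the transcript ENST00000483490.1, 2471 bp from the canonical start. It had a fold of 4.54, and its −log10 p of 6.24 was close to the calling limit of 5. It held 9 fragments (4.12 to 17.1) over a local background of 1.20 fragments, which was 2.48 times the lowest background of the library.

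Past the end of the gene, 3 THP1 GFI1 peaks lay between genes, with summits 10.8, 12.8 and 14.6 kb beyond the gene body. Their summits were 2077 and 1782 bp apart. The middle 1, at +26.7 kb, spanned 92459847 to 92460321, held 19 fragments (11.4 to 29.7) at a fold of 10.8, and ranked 620 of 3461 with a −log10 p of 20.1. Its interval and that of the intron 1 peak overlapped over most of their length. The 2 flanking peaks were weaker. The peak at +28.5 kb had a fold of 6.53 with 10 fragments (4.80 to 18.4), and the peak at +24.7 kb had a fold of 5.00 with 7 fragments (2.81 to 14.4), 1 more than the 6 needed for a call at the lowest background of this library.

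Measured over the whole list, few genes had as many GFI1 peaks within 50 kb as GFI1 itself, while the strength of these peaks was ordinary. Their median fold was 6.53, against 7.41 over the 3461 peaks, and 2 of the 5 were in the upper 50% of the list by −log10 p. Of all genes, 0.130% (26 of 20033) had at least 5 THP1 GFI1 peaks. These genes came from 15 separate loci, since neighbouring genes share peaks, and EVI5, the neighbour of GFI1, was counted with the same locus. The share depended on the window. With 10 kb on either side, GFI1 had 2 peaks and 2.51% of genes had as many, and with 100 kb the share was 0.384%. Peaks of this list covered 2773 bp, or 2.43% of the GFI1 window. Within 500 kb on either side of the gene 7 peaks were called, which was 6.90 per Mb against 1.12 per Mb of the genome, and 5 of the 7 fell into the window. The local background at these 7 was a median of 1.77 times the lowest background, against 1.24 over the list. The part of this background in the calls was not tested.

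**Figure D2:**
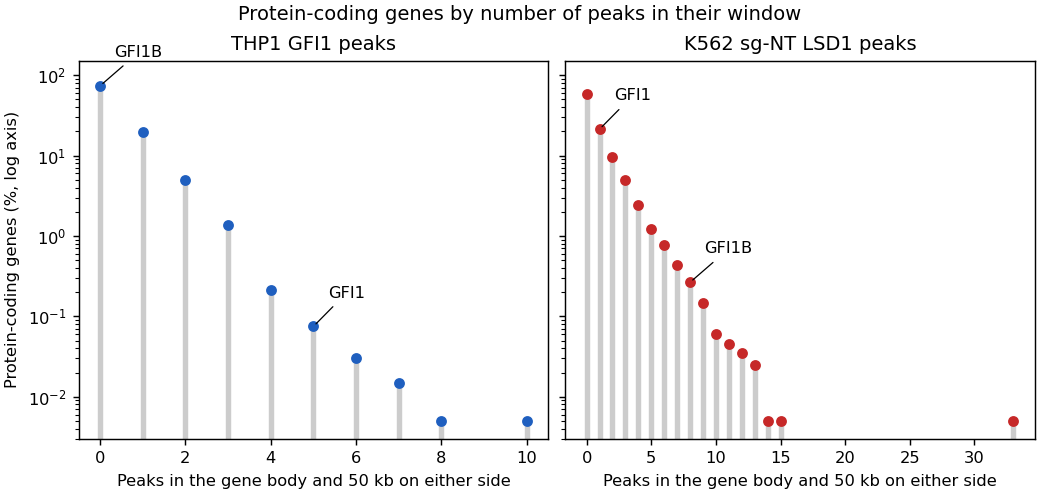
Share of the 20033 protein-coding genes (y axis, percent, log axis) with each number of peaks in the gene body and 50 kb on either side (x axis), for GFI1 in THP1 cells (left) and LSD1 in sg-NT K562 cells (right). GFI1 with 5 THP1 GFI1 peaks and GFI1B with 8 LSD1 peaks lie in the tails, and GFI1B with 0 THP1 GFI1 peaks and GFI1 with 1 LSD1 peak lie among the common counts.

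In K562 cells GFI1 had few peaks. The 1 LSD1 peak spanned 92446534 to 92446916 between genes, at +40.2 kb and 26.3 kb past the gene body. It held 18 fragments (10.7 to 28.4) at a fold of 11.7, and ranked 918 of 6548 with a −log10 p of 21.2. No peak of THP1 GFI1 overlapped it, and the nearest, at +28.5 kb, had its summit 11.7 kb away. Of the 5 THP1 GFI1 peaks at the gene, 0 overlapped a K562 LSD1 peak, 0 a K562 sg-NT GFI1 peak and 0 a THP1 SPI1 peak. Over the whole THP1 GFI1 list these overlaps were 8.70%, 2.34% and 5.58%, so that a count of 0 among 5 peaks is not unusual. The SPI1 peak nearest to the gene was 485 kb away.

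A strong K562 site lay just outside the window, on the upstream side of GFI1. In intron 19 of EVI5, 57.8 kb from the GFI1 gene body, an LSD1 peak from 92544686 to 92545235 held 37 fragments at a fold of 22.5, and ranked 91 of 6548 with a −log10 p of 51.2. GFI1 in sg-NT cells had a peak at the same place, from 92544753 to 92545096. It held 16 fragments (9.15 to 26.0) at a fold of 11.4, and ranked 85 of 498 with a −log10 p of 20.0. By −log10 p, each was above every peak of its own list in the windows of GFI1 and GFI1B. No peak of GFI1 in sg-LSD1 cells was called at this place either, the nearest being 21893 kb from the gene body. Over the sg-NT GFI1 list only 10.2% of the peaks had a counterpart in the sg-LSD1 list. The interval of 9.15 to 26.0 lay above the 6 fragments needed at the lowest background of the sg-LSD1 library. The sg-LSD1 background at this place is not known, and with 1 library each the difference was not tested.

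At GFI1B, separate LSD1 peaks in K562 cells were spread from upstream of its canonical start to the neighbouring gene. The strongest of the 8, from 132945246 to 132945688 at −33.3 kb, held 30 fragments (20.2 to 42.8) at a fold of 18.4, and ranked 214 of 6548 with a −log10 p of 39.2. Its summit lay between starts of both genes found there, 51 bp from the start of the TSC1 transcript ENST00000646440.2 and 125 bp from the start of the upstream GFI1B transcript ENST00000339463.7. TSC1 is the tumor suppressor that restrains mTOR signalling, and the peak cannot be given to 1 of the 2 genes by position.

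The second strongest LSD1 peak, from 133004114 to 133004582 at +25.7 kb, lay between genes, 12.7 kb past the gene body. It held 26 fragments (17.0 to 38.1) at a fold of 16.6, and ranked 300 of 6548 with a −log10 p of 33.7. Its local background of 0.630 fragments was the lowest of the library. Both of these peaks were within the first 4.58% of the list, and the other 6 ranked from 2102 to 5320.

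At the canonical start of GFI1B an LSD1 peak spanned 132978556 to 132979008, with its summit 14 bp upstream. It held 21 fragments (13.0 to 32.1), as many as the strongest THP1 GFI1 peak at GFI1, but its fold was only 6.95 because the local background of 2.17 fragments was 3.44 times the lowest of the library. By −log10 p, 14.6, it ranked 2102 of 6548. Inside the canonical transcript LSD1 peaks followed in intron 1 at +5.80 kb, with a fold of 6.23 and 10 fragments, and in intron 6 at +11.5 kb, with a fold of 6.01 and 9 fragments. Both held fewer fragments than the list median of 13.

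Behind the gene, LSD1 peaks at +14.3 kb and +20.6 kb had folds of 7.91 and 7.82, with 17 fragments (9.90 to 27.2) and 12 fragments (6.20 to 21.0). They stood between the gene end and the stronger peak at +25.7 kb. The last LSD1 peak of the window, at +52.4 kb, lay in exon 1 of GTF3C5, a subunit of the RNA polymerase III factor TFIIIC. Its summit was 37 bp from the start of the GTF3C5 transcript ENST00000439697.1. At a fold of 5.35 it was the weakest of the 8, and its −log10 p was 7.75. For the 6 peaks from the canonical start to +25.7 kb the nearest coding transcript start belonged to GFI1B, and for the outer 2 to TSC1 and GTF3C5. Beyond the window, the next LSD1 peaks were 145 kb from the gene body on the TSC1 side, in AK8 with a fold of 12.8, and 163 kb on the GTF3C5 side with a fold of 11.0.

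Few genes had as many LSD1 peaks within 50 kb as GFI1B, and again the median of their strength was near that of the list. The median fold of the 8 LSD1 peaks was 7.38, against 6.99 over the list. At least 8 LSD1 peaks were found for 0.589% of all genes (118 of 20033, in 43 separate loci), and 65 genes had more, up to 33. With 10 kb on either side the share with as many as GFI1B was 0.200%, and with 100 kb it was 2.25%. The neighbours TSC1 and GTF3C5 shared in the count with 5 and 6 LSD1 peaks. The peaks covered 3564 bp, or 2.41% of the window, a share close to the 2.43% of THP1 GFI1 peaks at GFI1. Within 500 kb on either side there were 13 LSD1 peaks, or 12.4 per Mb against 2.12 per Mb of the genome. Of the 13, 8 were those of the window, so this density is no separate result. The local background of these 13 was a median of 1.17 times the lowest, below the 1.38 of the list.

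The 1 peak of the GFI1 antibody at the 2 loci in K562 cells lay at the +25.7 kb site of GFI1B. The sg-NT GFI1 peak spanned 133004183 to 133004464, lay wholly within the LSD1 peak and had its summit 34 bp from that of LSD1. It held 10 fragments (4.80 to 18.4) at a fold of 7.58, and ranked 244 of 498 with a −log10 p of 11.6, close to the middle of the list. Of the 9 LSD1 peaks at the 2 genes 1 overlapped an sg-NT GFI1 peak, where 5.96% of the LSD1 list did, and 0 overlapped a THP1 GFI1 peak, where 4.60% did. The 1 sg-NT GFI1 peak overlapped LSD1, as did 78.3% of its list. In THP1 cells GFI1 had no peak here, and its nearest, 130 kb beyond the gene body at RALGDS, had a fold of 5.91.

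No GFI1 peak was called at this site in sg-LSD1 cells. Over the whole sg-NT GFI1 list 10.2% of the peaks had a counterpart in the sg-LSD1 list, so a peak without one was the common case. A call took 6 fragments at the lowest background of the sg-LSD1 library (0.547 fragments) and 5 at that of the sg-NT library (0.451 fragments). The 10 fragments of sg-NT cells were above this limit, but their interval of 4.80 to 18.4 reaches below it, and the list shows nothing of fragments under the limit. With 1 library each, lower binding and counting error cannot be told apart at this single site. On chromosome 9 the sg-LSD1 GFI1 peak nearest to GFI1B was 4385 kb away at SPTAN1.

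The sequence at the summits was searched for short cores in windows of 100 bp, on both strands. A match is a description of the letters and not a shown binding site. The AATC core was present at 12 of the 15 summits, among them all 5 THP1 GFI1 summits at GFI1, where the nearest copy was 1 to 16 bp from the summit. Windows of the same length had AATC at 75.6% of the THP1 GFI1 summits, 48.2% of the LSD1 summits and 68.5% of the sg-NT GFI1 summits, and the 100 bp before the start had it at 36.4% of RefSeq promoters, so that 5 of 5 was not far from the share of the list. In intron 1 of GFI1 the 2 copies are the GATT pair printed above. The full core AATCAC was found at 3 of the 15, against 17.8% of the THP1 GFI1 list, 5.18% of the LSD1 list and 16.1% of the sg-NT GFI1 list. These were the +28.5 kb peak of GFI1, 30 bp from the summit, and 1 copy at +25.7 kb of GFI1B that both K562 windows contain, 7 bp from the GFI1 summit and 41 bp from the LSD1 summit.

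The GATA core GATAA, which contains no AATC, was present at 6 of the 15 summits. Its share was 10.1% over the THP1 GFI1 list, 26.7% over the LSD1 list, 38.8% over the sg-NT GFI1 list and 8.03% over promoters. At the shared site of GFI1B 1 copy, which both K562 windows contain, lay 12 bp from the LSD1 summit, and the +20.6 kb site had 2 copies facing each other. Copies also lay at the K562 LSD1 peak of GFI1, and at the THP1 GFI1 peaks at +26.7 kb and +24.7 kb. The +26.7 kb window was the only 1 of the 15 with the ETS core GAGGAAGT, which SPI1 binds and which lay directly beside the GATA core there, and SPI1 had no peak at it. GAGGAAGT was found at 34.6% of the SPI1 summits and 3.32% of the THP1 GFI1 summits. LSD1 peaks of GFI1B at +5.80, +11.5 and +14.3 kb held neither AATC nor GATAA in their windows.

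The promoter of GFI1B, taken as the 250 bases before the canonical start from RefSeq (GRCh38.p14), held AATC at 4 places and GATAA at 1. Over 35116 promoters of this length AATC was found in 64.8% and GATAA in 20.4%, so presence alone did not set it apart. The copies of AATC lay within the LSD1 peak, the nearest 14 bp from its summit. The 30 bases shown hold the other 3 of the 4. They were picked for holding most AATC, so this number follows from the choice. Of the 250 bases before the canonical start of GFI1B, 187 lie in an annotated exon, as do the LSD1 summit and the 30 bases shown. The 250 bases before the canonical start of GFI1 held AATC at 1 place, GATAA at 0, and no peak of the 5 lists touched them. Those before another RefSeq start of GFI1, at 92486099, lay within the strongest THP1 GFI1 peak and held AATC at 0 places. Before a further GFI1 start, at 92483814, AATC was at 1 place and no peak touched. Before the upstream GFI1B start at 132945531, AATC was at 2 places and GATAA at 0, and the strongest LSD1 peak had its summit there.

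For comparison the windows of genes with related products were counted. Of 7 other genes for SNAG-domain zinc-finger proteins, 2 had a THP1 GFI1 peak (SNAI1 and INSM1, 1 peak each), 3 an LSD1 peak (SNAI1, SNAI3 and SCRT2) and 0 a GFI1 peak of either K562 list. The shares with a THP1 GFI1 peak, 28.6%, and with an LSD1 peak, 42.9%, were close to the 26.2% and 41.1% of all genes. SCRT2 came nearest to GFI1B, with 5 LSD1 peaks and a highest fold of 11.7. Of 12 genes for corepressor partners of GFI1, 10 had an LSD1 peak, up to 6 at PHF21A. A THP1 GFI1 peak was found at 2 of the 12 (HDAC3 and EHMT2, with 1 and 3), and a K562 GFI1 peak at 0. Over all genes the share with a GFI1 peak was 4.77% in the sg-NT list and 1.48% in the sg-LSD1 list. A count of 0 among 7 or 12 genes is thus not unusual. Among these partners the share with an LSD1 peak was 83.3%, against 41.1% of all genes, and the share with a THP1 GFI1 peak was 16.7%, against 26.2%. Longer genes have wider windows, and these shares were not adjusted for gene length, whose part in them was not tested. At KDM1A, the gene of LSD1, there were 2 LSD1 peaks with a highest fold of 7.98.

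The genes most like each member were ranked by the distance between their highest folds over the 5 lists on the log2(1 + fold) scale. This measure uses the strongest peak in each of the 5 lists and not the number of peaks. For GFI1 the nearest was CORO7-PAM16 on chromosome 16 (distance 0.0106), with 2 THP1 GFI1 and 5 LSD1 peaks of highest folds 10.8 and 11.6, followed by MFSD14B, GALNT11, NUDT16L1 and SDC3 (distance 0.0908). For GFI1B it was ADARB1 on chromosome 21 (distance 0.0430), with 2 LSD1 peaks and 1 sg-NT GFI1 peak of highest folds 17.8 and 7.58, followed by ZNF30, MACC1, POC1B and C22orf39 (distance 0.133). None of these genes had as many THP1 GFI1 peaks as GFI1 or as many LSD1 peaks as GFI1B.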

How the data were processed

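The peak lists of 5 ChIP-seq libraries, 2 of THP1 and 3 of K562 cells, were used. Input libraries and murine H3K4me1 libraries were not analysed here. Each condition had 1 library. The authors used Trim Galore (0.6.1) for trimming, bowtie2 (2.5.4) for mapping to GRCh38, Picard (3.1.0) against duplicates and MACS2 (2.2.9.1) for peaks, as the submitters' processing notes list them. Peaks were called in each library separately with p below 1e-05, and blacklisted regions were taken out. Whether the input served as the MACS2 control is not given in the sources used here. The fold of a peak is the ratio of pileup to local background at the summit with 1 added to each, as deposited. The −log10 p-value and −log10 q-value were deposited by the authors at the summit. The deposited score and signal tracks were not used.

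Read totals were not used. From fold, which is (pileup + 1) / (background + 1), and the Poisson p, the whole number of fragments and the local background were solved with a tolerance of 0.005 on −log10 p. Whole numbers resulted for 100% of all peaks. As lowest background of a library, the smallest value held by 5 or more peaks was used, and it ranged from 0.404 to 0.630 fragments. The median over a summit was 11 to 13 fragments, so weak sites fall below the calling limit. As a check, fold and p were recomputed without noise from the solved numbers of each list and solved again, which returned 100% of the fragment numbers. Because the same formula was used in both directions, this checks the arithmetic only and not the model behind it.

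Peaks were assigned by overlap with the gene body of GENCODE 44 and 50 kb on either side, and the same count was made for 20033 protein-coding genes. Peaks of 2 lists with at least 1 bp in common were counted as shared. Motifs were searched on both strands. The GFI1 cores were AATCAC and the shorter AATC that it contains, and the GATA core was GATAA. The ETS core was GAGGAAGT, which contains the shorter GGAA, found at 12 of the 15 summits. The RUNX core TGTGGT was found at 1 summit, the E-box CANNTG at 4 and the AP-1 core TGANTCA at 0. Named genes were GFI1 and GFI1B, the genes of the SNAG-domain and partner lists, genes at a named peak and the 5 genes most alike by highest fold. The members and lists were chosen with earlier results of these data known. No test between libraries was made, and proteins were not compared here. Alternatives were windows of 10 and 100 kb, −log10 p of at least 8, −log10 q of at least 2, other definitions of overlap, motif windows of 50 and 200 bp and a pseudocount of 0. Scripts ran under Python (3.11.15) with scipy (1.17.1), numpy (2.4.6) and pysam (0.24.0). The genome was indexed with samtools (1.23.1) and plots drawn with matplotlib (3.10.9).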

Additional observations from a re-analysis of the deposited data

How the results depend on the processing

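No paired analysis was possible because each condition of the peak lists had 1 library, and no replicate could be left out. Of the settings tried, the width of the window changed the counts most. With 10 kb on either side, THP1 GFI1 had 2 peaks at GFI1, LSD1 had 0 there and sg-NT GFI1 had 0 at GFI1B. The share of genes with at least as many peaks was then 2.51% for GFI1 and 0.200% for GFI1B. With 100 kb, LSD1 had 2 and sg-NT GFI1 had 1 peak at GFI1, and these shares were 0.384% and 2.25%. With a −log10 p of at least 8, 3 of the THP1 GFI1 peaks at GFI1 remained. Counted as peaks per 100 kb of window, an alternative chosen after seeing the data, the shares were 0.0549% for GFI1 and 0.973% for GFI1B. The window of the canonical transcript was also chosen after seeing the data and moved no count by over 1.5 times. The overlaps at the 2 genes were 0 or 1 under each definition tried. With a pseudocount of 0 in the fold, 0% of the summits gave a whole number of fragments, against 100% with 1. In motif windows of 50 bp AATCAC was left at 1 summit and TGTGGT at 0, and in windows of 200 bp CANNTG was at 8 and TGANTCA at 2 summits. For each of these changes the cause was not tested beyond the construction of the setting. Peak lists show nothing of binding below the calling limit, and with a median of 11 to 13 fragments a summit the intervals of the weaker peaks reach below the number needed for a call.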
